A study of Mus musculus with 4 samples.

Results

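The genes described here serve protein folding in the endoplasmic reticulum (ER), the stress pathway of the transcription factor ATF4, and the supply of amino acids. They were chosen by symbol, as a list of 36 rows among 50600 genes in the deposited count tables. The list holds 34 named protein-coding genes and 2 rows on the strand opposite to them, 1810014B01Rik opposite Hsp90b1 and Gm44170 opposite Sec61a1. RNA came from primary T helper 2 (Th2) cells of C57BL/6NJ mice, in 4 libraries that form 1 group, numbered as biological replicates 1 to 4 and carrying 1 donor identifier. The file headers name 48 hours, the sex was not collected, and the age is unknown. No other genotype, treatment or cell type was available to compare with, so levels were compared within and between these libraries. The labels do not say whether the replicates were separate cultures or animals, so p-values measure only the spread between these libraries, which may be technical.

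Secreted and membrane proteins fold in the ER with the help of chaperones and disulfide isomerases. When folding lags, sensors in the ER membrane start the unfolded protein response, in which spliced XBP1 and ATF6 switch on chaperone genes. The sensor PERK, and other kinases that sense missing amino acids, phosphorylate eIF2α, and this raises the translation of ATF4, which switches on genes for amino acid synthesis, uptake and stress signalling. Th2 cells are CD4 T cells that secrete interleukin-4, interleukin-5 and interleukin-13, and activated T cells draw heavily on amino acid uptake.

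Each value below is the count of read pairs, or the level in TPM (the count per exon length, scaled to the same sum in each library), that the tables assign to the named gene. The headers give strand setting 1, and whether it matches the strand of the library kit is not stated in the sources used here and was not tested. Under the reverse setting each read pair would be assigned to the other strand. The counts, levels and percentiles of genes that share no exon with an opposite gene would then change too. Totals were 2271993, 2112190, 2204423 and 1785970 counts in replicates 1 to 4. Replicate 4 stood apart, with a chi-square per degree of freedom of 19.9 to 24.9 against the others, which differed among themselves by 2.45 to 3.95. A row at 0 is compatible with as many as 3 counts, which is 1.32 to 1.68 CPM by library, and floors and intervals cover counting error only. Of 7 T cell marker genes all had over 3 counts in every library, and so did 5 of 6 Th2 markers, the exception being Il5, at 0 in all of them. Of 9 B and plasma cell markers 1 did (Cd79a, with 14, 8, 4 and 7 counts in replicates 1 to 4), while Ighm (9, 8, 4 and 3), Sdc1 (3, 6, 4 and 3) and Derl3 (1, 3, 2 and 4) passed 3 counts in some of them, and Cd79b, Ms4a1, Jchain and Mzb1 were at 0. None of 5 CD8 T and NK cell markers did, with Ncr1 and Klrb1c at 0. Of 6 macrophage and dendritic cell markers 1 did, Csf1r, which shares exon with a gene on the other strand, while Itgam, Adgre1 and Itgax were at 0. The T cell markers Cd3e and Cd247 and the Th2 markers Gata3, Il5 and Stat6 share exon in this way too. Csf1r had 1409, 1363, 1457 and 1066 counts in replicates 1 to 4, and Cd247 had 1360, 1364, 1278 and 972. In bulk RNA, fewer cells of a type and less RNA per cell cannot be told apart.

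The sequence around the starts of these genes was also searched. The motifs are known sites of the pathways by which the genes were chosen. More matches here than in all windows therefore give no separate support for the list. RefSeq promoter windows on GRCm38.p6 (250 bases before to 50 after the start) were matched for 29 of the 36 rows. The ER stress response element (ERSE), the site through which ATF6 with NF-Y acts on chaperone genes, was searched on both strands as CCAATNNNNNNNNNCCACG. It was found in 7 of the 29, all of them genes of ER folding, against 0.119% (39) of all 32851 windows. These stretches are shown because they hold the matches behind that count. The capitals mark the match, and the reverse complement appears where the match lies on the other strand. Positions are counted from the start, negative before it, with no base numbered 0.
Hspa5, chr2:34772013-34772055, plus strand: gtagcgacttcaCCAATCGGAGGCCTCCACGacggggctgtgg
Calr, chr8:84847063-84847105, minus strand: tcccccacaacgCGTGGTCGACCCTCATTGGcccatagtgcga
Hsp90b1, chr10:86705521-86705668, minus strand: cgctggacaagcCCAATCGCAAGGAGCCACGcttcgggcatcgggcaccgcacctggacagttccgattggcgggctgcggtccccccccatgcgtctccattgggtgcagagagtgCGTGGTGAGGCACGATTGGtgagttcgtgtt
Canx, chr11:50325788-50325830, minus strand: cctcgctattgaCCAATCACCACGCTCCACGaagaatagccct
Pdia6, chr12:17266479-17266521, plus strand: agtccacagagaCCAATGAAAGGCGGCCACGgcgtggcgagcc
Dnajc3, chr14:118937815-118937857, plus strand: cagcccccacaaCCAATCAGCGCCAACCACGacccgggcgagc
Creld2, chr15:88819508-88819550, plus strand: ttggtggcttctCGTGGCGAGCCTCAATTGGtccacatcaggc
The matches began between -212 and -65, and Hsp90b1 held 2 of them, on opposite strands.

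The amino acid response element (CARE), through which ATF4 acts with a C/EBP partner, was searched on both strands as TGATGNAA. It was found in 5 of the 29 (Asns, Chac1, Herpud1, Slc7a11 and Trib3), against 3.97% (1304) of all windows. No row held both motifs. These 4 stretches show the matches that lie before the start; in Trib3 the match lies at 15 to 22, after the start. The XBP1 site (UPRE), searched as TGACGTGG, was found in 0 of the 29 and in 0.676% (222) of all windows. A match is a description of letters, not a site shown to be bound.
Chac1, chr2:119351037-119351068, plus strand: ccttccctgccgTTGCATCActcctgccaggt
Slc7a11, chr3:50443641-50443691, minus strand: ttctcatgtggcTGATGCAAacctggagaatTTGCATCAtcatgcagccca
Asns, chr6:7693213-7693244, minus strand: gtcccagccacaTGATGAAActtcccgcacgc
Herpud1, chr8:94386305-94386336, plus strand: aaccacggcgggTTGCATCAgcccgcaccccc

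**Figure D1:**
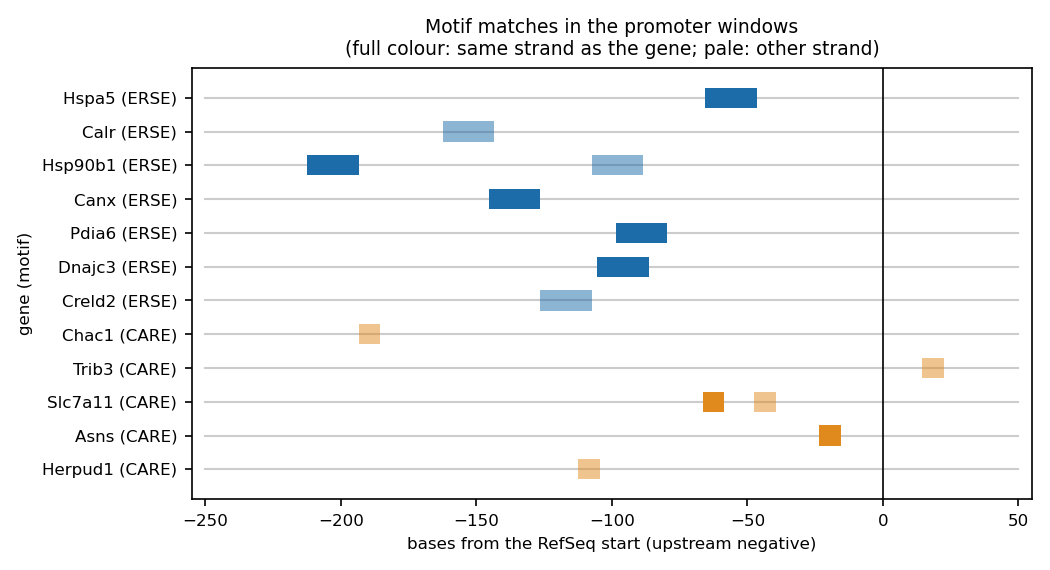
Position of each ERSE match (blue) and CARE match (orange) in the RefSeq promoter window of each gene that holds one, in bases from the start, with upstream negative. All 8 ERSE matches lie between -212 and -47, and of the 6 CARE matches only that of Trib3 lies after the start.

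Some of these genes share exon bases with a gene on the other strand, and rows with and without such an overlap are given apart. Of the 36 rows 12 had an overlap, 10 of the 34 named genes and both opposite rows, against 22.1% of all 21764 protein-coding genes. Over the whole series 8189 of 50600 rows had such an overlap, and they held 92.5%, 93.1%, 94.5% and 93.3% of all counts in replicates 1 to 4. Among the 24 genes without an overlap, 16 reached 1 TPM in all 4 libraries (66.7%), against 14.7% of 16963 protein-coding genes without one. Among the 12 with an overlap 11 did, 9 of them among the 10 named genes, against 46.8% of 4801 protein-coding genes with one. The median of the mean TPM was 4.60 over the 24 genes without an overlap and 0.0192 over all protein-coding genes without one. It was 13.9 over the 10 named genes with an overlap and 1.35 over all protein-coding genes with one. The 24 genes without an overlap together took 0.0607%, 0.0557%, 0.0388% and 0.0566% of the counts in replicates 1 to 4 (95% Wilson intervals 0.0576 to 0.0640, 0.0526 to 0.0590, 0.0363 to 0.0415 and 0.0532 to 0.0601). The share was lowest in replicate 3, and its interval there did not meet the others.

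**Figure D2:**
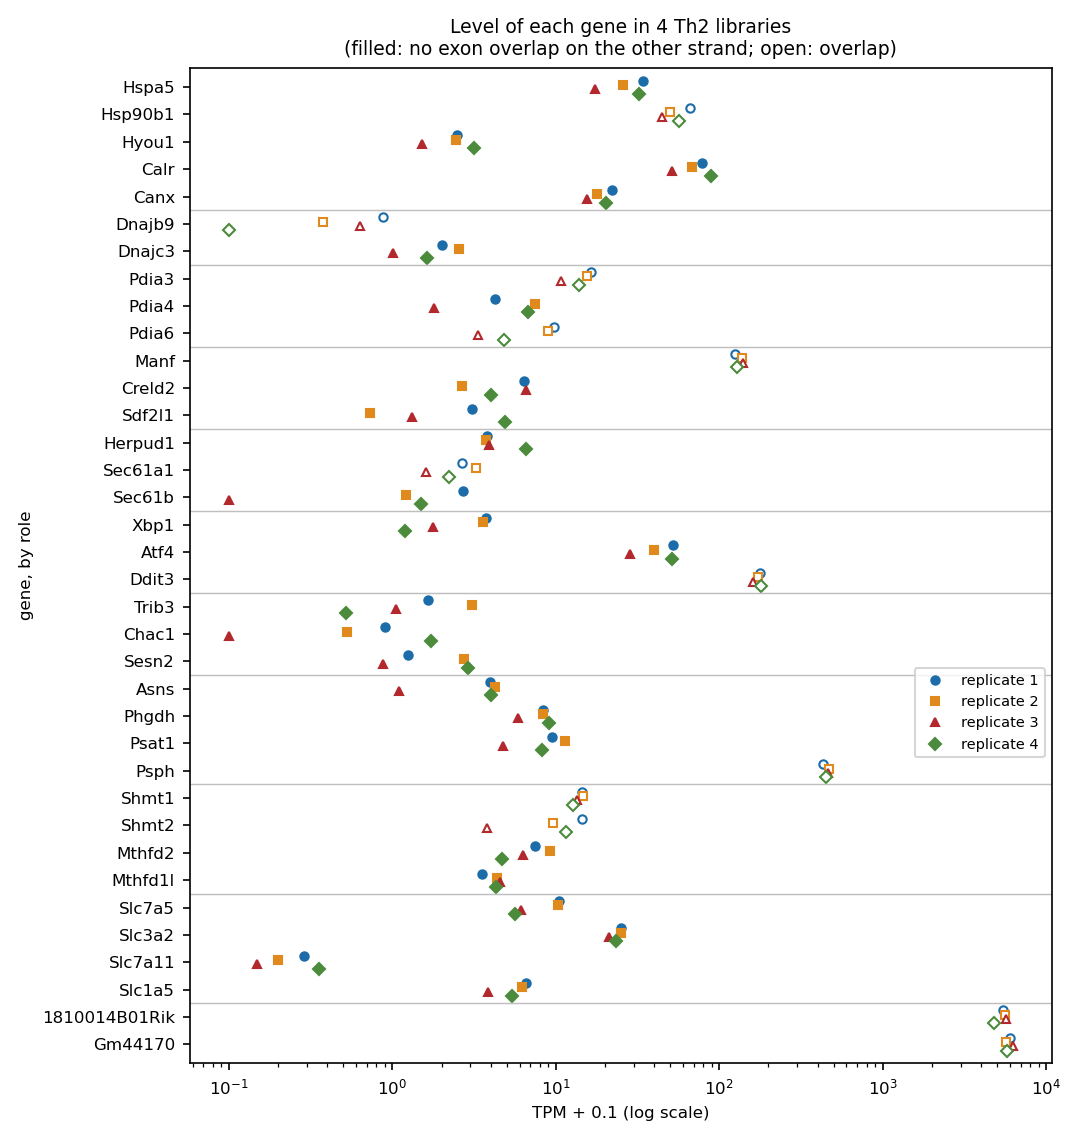
TPM + 0.1 on a log axis for each gene in each library (marker shape and colour), with genes grouped by role. Filled markers are genes that share no exon base with an opposite gene, and open markers those that do. The 2 opposite rows lie at 4789.8 TPM or more in every library, and Psph, Ddit3 and Manf lie highest among the named genes.

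Of the lumenal chaperones, Hspa5 encodes BiP, the HSP70 that binds unfolded chains and holds the sensors inactive. Hspa5 (chromosome 2, 34771970 to 34777547, plus strand, mm10) had 218, 154, 108 and 154 counts in replicates 1 to 4, or 34.1, 25.6, 17.4 and 32.3 TPM. Its level was lowest in replicate 3, and its mean of 27.3 ± 7.58 TPM (SD, n = 4) was at the 98.1 percentile of the 8540 protein-coding genes without an overlap that had counts. Calr (chromosome 8, 84841850 to 84846934, minus strand) encodes calreticulin, a lectin that folds glycoproteins in the lumen. It had 341, 278, 217 and 288 counts, or 78.2, 68.0, 51.2 and 88.8 TPM, a mean of 71.5 ± 16.0 TPM (SD, n = 4). That mean was the highest among the 24 genes without an overlap, at the 99.5 percentile of its class. Canx (chromosome 11, 50293961 to 50325673, minus strand) encodes calnexin, the membrane-bound partner of calreticulin. It had 156, 119, 106 and 107 counts and 18.9 ± 2.88 TPM (SD, n = 4). Hspa5 was above Canx in each of the 4 libraries, although the ranges of the libraries overlapped, and Calr was above Hspa5 in each with ranges that did not overlap. Hyou1, an ER HSP70-like nucleotide exchange factor for BiP, had 26, 24, 15 and 25 counts and 2.3 TPM on average, below Hspa5, Calr and Canx in every library. Hsp90b1, the ER HSP90 (GRP94), had 403, 286, 266 and 257 counts and 54.3 ± 9.16 TPM (SD, n = 4), between Calr and Hspa5 on average, but this row overlaps 1810014B01Rik.

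Co-chaperones assist BiP. Dnajc3 (P58IPK, a J-domain co-chaperone) had 15, 18, 7 and 9 counts and 1.70 TPM on average, and Dnajb9 (ERdj4, another) had 3, 1, 2 and 0. Dnajb9 did not exceed the floor of 3 counts in any library. Of the disulfide isomerases, Pdia3 (ERp57, which works with calnexin and calreticulin) had 78, 69, 49 and 49 counts and 14.1 ± 2.55 TPM (SD, n = 4). Pdia3 was above Pdia4 and Pdia6 in all 4 libraries, with ranges that did not overlap. Pdia6 had 55, 47, 18 and 20 counts and 6.64 ± 3.12 TPM, and Pdia4 had 15, 25, 6 and 18 counts and 4.96 TPM on average. Their ranges overlapped, and Pdia6 was the higher in 3 of 4 libraries.

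Among other ER proteins, Creld2, a target of the unfolded protein response with a proposed role in disulfide exchange, had 13, 5, 13 and 6 counts, and Sdf2l1, a partner of ER J-domain proteins, had 5, 1, 2 and 6. They averaged 4.82 and 2.41 TPM, at the 87.6 and 76.7 percentiles of the protein-coding genes without an overlap that had counts. Manf, which encodes a secreted ER stress-induced neurotrophic factor, had 662, 692, 727 and 507 counts and 133 ± 7.87 TPM (SD, n = 4). Manf was above Creld2 and Sdf2l1 in every library, and it overlaps 2 genes on the other strand. Herpud1, an ER membrane protein of ER-associated degradation, had 13, 12, 13 and 17 counts and 4.39 TPM on average. Of the translocon, the channel through which new chains enter the ER, Sec61a1 had 26, 30, 15 and 16 counts and 2.33 ± 0.687 TPM (SD, n = 4), and Sec61b had 5, 2, 0 and 2. Sec61b passed 3 counts only in replicate 1.

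The 3 transcription factors stood in the same order in each library, Ddit3 above Atf4 and Atf4 above Xbp1, and none of their ranges overlapped. Ddit3 encodes CHOP, a C/EBP family factor downstream of ATF4. Its counts were 460, 419, 403 and 346, or 172 ± 8.74 TPM (SD, n = 4), and the row overlaps Mars and Gm4189. Atf4 (chromosome 15, 80255184 to 80257540, plus strand), without an overlap, had 136, 97, 72 and 100 counts and 42.9 ± 11.3 TPM (SD, n = 4). Its lowest library was replicate 3, and its mean was at the 98.9 percentile of its class, the second highest among the 24 genes without an overlap. ATF4 is controlled largely at translation, which RNA counts do not measure. Xbp1 had 18, 16, 8 and 4 counts and 2.47 TPM on average. Counts per gene do not separate spliced from unspliced Xbp1.

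Stress effectors downstream of ATF4 had few counts. Sesn2 (sestrin 2, a leucine sensor that restrains mTORC1) had 6, 13, 4 and 11 counts, Trib3 (a pseudokinase that feeds back on ATF4) had 5, 9, 3 and 1, and Chac1 (which degrades glutathione) had 2, 1, 0 and 3. Their mean levels were 1.84, 1.48 and 0.716 TPM, their ranges overlapped, and none reached 1 TPM in all libraries. Atf4 itself stood above all 3 in every library, at no less than 28.4 TPM.

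Of asparagine and serine synthesis, Asns (asparagine synthetase) had 16, 16, 4 and 12 counts, or 3.87, 4.12, 0.994 and 3.89 TPM. Replicate 3 lay apart from the other 3 libraries. Serine is made from 3-phosphoglycerate by PHGDH, PSAT1 and PSPH in turn. Phgdh (chromosome 3, 98313170 to 98339990, minus strand) had 31, 29, 21 and 25 counts and 7.78 ± 1.4 TPM, and Psat1 (chromosome 19, 15904678 to 15947337, minus strand) had 60, 68, 29 and 39 counts and 8.34 ± 2.78 TPM (SD, n = 4 each). Each was the higher in 2 of 4 libraries and their ranges overlapped, while both were above Asns in all 4, with ranges that did not overlap. Psph, the last enzyme, had 2806, 2885, 2963 and 2200 counts and 453 ± 18.5 TPM (SD, n = 4), the highest mean among the 34 named genes as the tables assign the counts. Psph was above Phgdh and Psat1 by 5.71 ± 0.279 and 5.66 ± 0.498 on the log2 scale of TPM + 1 (SD, n = 4). However, Psph is the only 1 of the 3 that overlaps another gene, Cct6a.

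The next enzymes pass a carbon of serine to folate. Shmt1, the cytosolic serine hydroxymethyltransferase, had 85, 80, 77 and 55 counts and 13.8 ± 0.921 TPM, and Shmt2, the mitochondrial one, had 68, 42, 17 and 40 counts and 9.77 ± 4.52 TPM (SD, n = 4 each). Shmt1 was the higher in each library, by 0.58 ± 0.734 on the log2 scale of TPM + 1. In replicate 1 the levels were almost equal, at 14.464 and 14.452 TPM. The ranges of the libraries overlapped, however, and both rows overlap other genes. Of the mitochondrial folate enzymes without an overlap, Mthfd2 had 39, 45, 32 and 18 counts and 6.82 TPM on average. Mthfd1l had 23, 27, 29 and 21 counts and 4.09 TPM on average, lower than Mthfd2 in each library.

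All 4 amino acid transporter genes were free of overlaps. Slc3a2 (CD98 heavy chain, chromosome 19, 8706882 to 8723369, minus strand) had 133, 125, 110 and 92 counts and Slc7a5 (LAT1, the light chain that carries large neutral amino acids with it) had 58, 54, 33 and 23. In TPM the heavy chain was above the light chain in every library, and the ranges did not overlap. The difference was 1.49 ± 0.346 on the log2 scale of TPM + 1 (SD, n = 4). Slc7a11 (xCT, the cystine transporter that also pairs with CD98 heavy chain) had 4, 2, 1 and 4 counts over 13922 bp of exon, or 0.149 TPM on average. It passed 3 counts in replicates 1 and 4 only. Slc1a5 (ASCT2, a transporter of glutamine and other neutral amino acids) had 41, 36, 23 and 25 counts and 5.41 TPM on average, below Slc7a5 in each library but with an overlapping range. The 7 genes with an ERSE match ranged from 1.70 (Dnajc3) to 71.5 (Calr) TPM on average, and the 5 with a CARE match from 0.149 (Slc7a11) to 4.39 (Herpud1). These ranges overlap, and the levels were not compared by a test.

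The 10 named genes with an overlap formed 12 pairs with genes on the other strand, and in 4 of the 12 the opposite gene had more counts per kb of exon in all 4 libraries, against 48.6% of 5464 such pairs of a protein-coding gene and its opposite gene. Ratios are of counts per kb of exon with 0.5 counts added, the named gene over its opposite gene. With 4 libraries the smallest p of an exact two-sided sign-flip test is 2 of 16 sign patterns, or 0.13 when rounded, so no single pair can pass 0.05. In 11 of the 12 pairs every library had the same sign (for Dnajb9 through the added counts alone), with p = 0.136 after Benjamini-Hochberg adjustment over the 12 (exact sign-flip test). Which of the genes gave rise to the counts in a pair was not tested.

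As the tables assign the counts, the 2 opposite rows of the list stood far above their partners. Under the reverse strand setting, read pairs counted in the shared exon would go to the partner gene. Sec61a1 (chromosome 6, 88503579 to 88518905, minus strand) had 26, 30, 15 and 16 counts, against 4971, 4399, 5039 and 3574 counts in Gm44170 (ENSMUSG00000107659.1, 88503605 to 88504277, plus strand). Gm44170, annotated as antisense, has 549 bp of exon, all of it inside the exons of Sec61a1, of which it makes up 8.16%. The log2 ratio of Sec61a1 over Gm44170 was -11.3 ± 0.490 (SD, n = 4), or 2562 times more counts per kb in Gm44170. Hsp90b1 (chromosome 10, 86690209 to 86705509, minus strand) had 403, 286, 266 and 257 counts, against 21961, 21059, 22207 and 14311 counts in 1810014B01Rik (ENSMUSG00000097412.2, 86685525 to 86694806, plus strand). 1810014B01Rik is annotated as a transcribed unprocessed pseudogene and shares 415 bp with Hsp90b1 at their 3′ ends. The log2 ratio of Hsp90b1 over 1810014B01Rik was -6.64 ± 0.303 (SD, n = 4), or 99.7 times more counts per kb in 1810014B01Rik. In TPM the 2 opposite rows averaged 5910.2 ± 259.6 (Gm44170) and 5386 ± 407 (1810014B01Rik; SD, n = 4 each), and they made up most of the counts of the list. All 36 rows held 1.45%, 1.48%, 1.48% and 1.25% of the counts in replicates 1 to 4, and the 34 named genes held 0.265%, 0.271%, 0.245% and 0.252%.

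The other 2 pairs with a denser opposite gene were less far apart. Manf had 662, 692, 727 and 507 counts, against 1937, 1771, 1916 and 1328 counts in 4930524O07Rik, an antisense row that shares 166 bp with it at the 5′ ends, and the log2 ratio was -2.00 ± 0.0859 (SD, n = 4). Manf was in turn denser than Dcaf1, which shares 146 bp with it at the 3′ ends and had 140, 136, 125 and 95 counts, by 3.53 ± 0.12 on the log2 scale (SD, n = 4). Manf therefore lay between its opposite genes in every library. Shmt1 had 85, 80, 77 and 55 counts, against 276, 222, 259 and 184 counts in the 184 bp neighbour Smcr8, and the log2 ratio was -0.60 ± 0.130 (SD, n = 4).

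Psph and Ddit3, the named genes with the highest mean TPM, were the denser row of each of their pairs. Psph had 2806, 2885, 2963 and 2200 counts, against 156, 124, 97 and 119 counts in Cct6a, a gene for a subunit of the cytosolic chaperonin that shares 452 bp with it at the 5′ ends. The log2 ratio was 4.20 ± 0.354 (SD, n = 4). Psph held 94.7%, 95.9%, 96.8% and 94.9% of the counts of this pair in replicates 1 to 4. Ddit3 had 460, 419, 403 and 346 counts, against 197, 194, 199 and 132 counts in Mars, which encodes methionyl-tRNA synthetase and shares 68 bp with it at the 3′ ends. The log2 ratio was 2.18 ± 0.16 (SD, n = 4). Gm4189, which shares 13 bp with Ddit3, had 5, 2, 1 and 2 counts.

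In the remaining pairs the shared exon was 50 bp or less. Pdia3 (18 bp shared) was 3.04 ± 0.421 and Pdia6 (50 bp shared) 2.08 ± 0.351 above Catsper2 and Atp6v1c2 on the log2 scale (SD, n = 4 each). Catsper2 had 7, 10, 7 and 9 counts and Atp6v1c2 7, 4, 2 and 3. Shmt2 was 1.21 ± 1.20 above Ndufa4l2 (32 bp shared; 6, 10, 6 and 2 counts), with 1 library of opposite sign (p = 0.25, exact sign-flip test). Mir5627, which shares 14 bp with Dnajb9, was at 0 in all libraries, so no ratio is given.

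**Figure D3:**
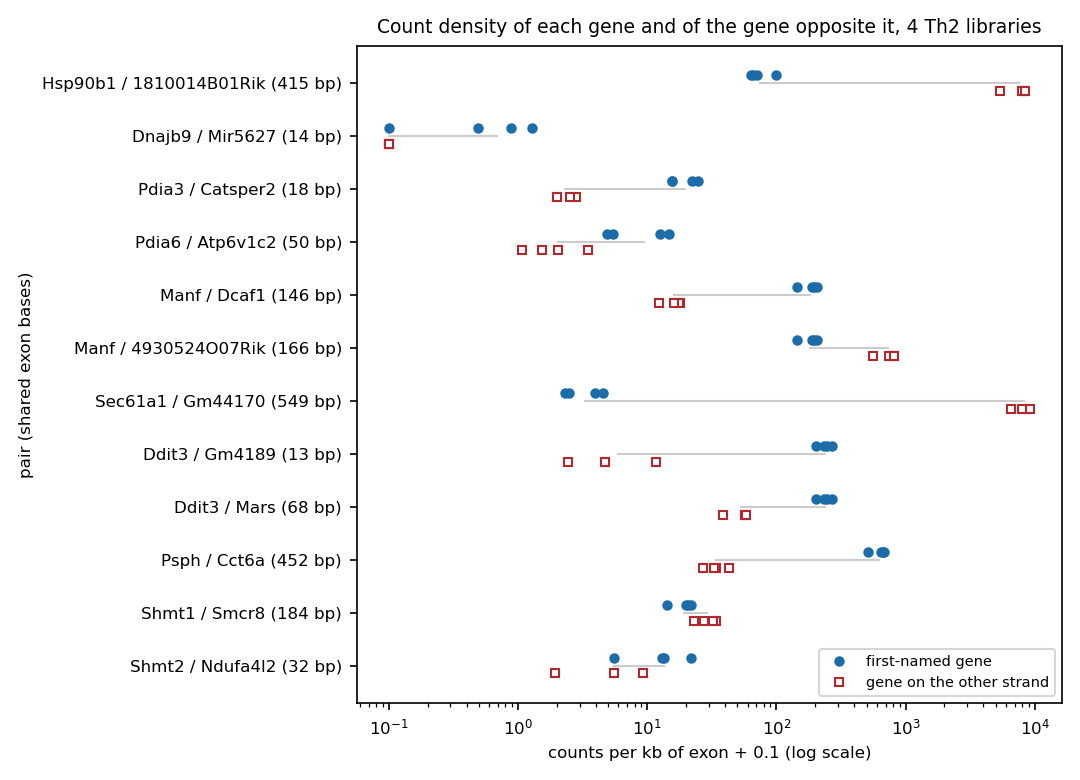
Counts per kb of exon + 0.1 on a log axis for each named gene (filled circles) and the gene on the other strand (open squares) in the 4 libraries, with the shared exon bases in brackets. Sec61a1 and Hsp90b1 lie furthest below their opposite genes, and Psph, Ddit3 and Pdia3 lie above theirs.

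Of the 36 rows 24 passed edgeR's filter on low counts and were tested for variation between libraries, 13 without an overlap and 11 with one. None was called by edgeR's goodness of fit at an adjusted p under 0.05, against 0.454% (23) of 5064 genes tested. At an unadjusted p under 0.05 there were 4 (Hspa5, Calr, Shmt2 and Pdia6), against 5.13% (260) of all genes, and the DESeq2 dispersion trend gave 0 and 3. The smallest was that of Shmt2, with an unadjusted p of 0.00188 and an adjusted p of 0.202 in edgeR. With replicate 3 left out, none of 27 tested rows passed an unadjusted p of 0.05. In a fit of genes without an overlap alone, none of the 13 did, against 77 of 1794 such genes. There the unadjusted p was 0.41 for Hspa5 and 0.61 for Calr (goodness of fit).

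The libraries still differed in a shared direction. Of the 13 tested genes without an overlap, 9 were lowest in replicate 3 by TMM-normalized CPM (69.2%), against 53.1% of all 1794 tested genes without an overlap. The median log2 ratio of replicate 3 over the mean of the others was -0.51 for the 13 and -0.32 for all such genes. With TMM factors from genes without an overlap alone, 7 of the 13 were lowest there, against 29.2% of all such genes, and those medians were -0.18 and 0.01. Without replicate 4, 11 of the 13 were lowest in replicate 3, against 59.9%. The 5 T cell markers without an overlap summed to 66.8, 51.0, 29.8 and 48.8 TPM in replicates 1 to 4 and the 9 B and plasma cell markers to 10.4, 9.02, 4.70 and 8.16, both lowest in replicate 3 as well. So were the Th2 markers without an overlap, which summed to 43.7, 35.0, 30.7 and 35.5 TPM. Markers of macrophages and dendritic cells without an overlap were highest there, at 1.05, 1.68, 2.70 and 2.09 TPM. Those of CD8 T and NK cells were too, at 1.07, 1.90, 2.58 and 1.20. Each gene of these last sets had 5 counts or fewer in every library. Their part in the result was not tested.

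Among the 11 tested rows with an overlap, 6 were lowest in replicate 3, against 18.9% of all 3270 tested genes with one. The 6 were Shmt2, Pdia6, Sec61a1, Pdia3, Hsp90b1 and Ddit3. Shmt2 had 68, 42, 17 and 40 counts and Pdia6 55, 47, 18 and 20, and they had the lowest replicate 3 values of all 24 tested rows relative to the other libraries (-1.61 and -1.18 on the log2 scale). Psph, Manf, Gm44170 and 1810014B01Rik were highest in replicate 3, as was Mthfd1l among the genes without an overlap. Over all tested genes, 1289 of 3270 with an overlap and 158 of 1794 without one were highest there. The median coefficient of variation was 7.83% over these 11 rows (5.74% expected from counting alone) and 25.2% over the 13 genes without an overlap (15.4% from counting alone). Relative to counting error these 11 rows varied more, with a median ratio of 2.60 to the counting value, against 1.46 for the 13. Over all tested genes the median ratios lay closer together, at 1.36 with an overlap and 1.26 without. Whether the high counts of some of the 11 rows played a part was not tested.

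**Figure D4:**
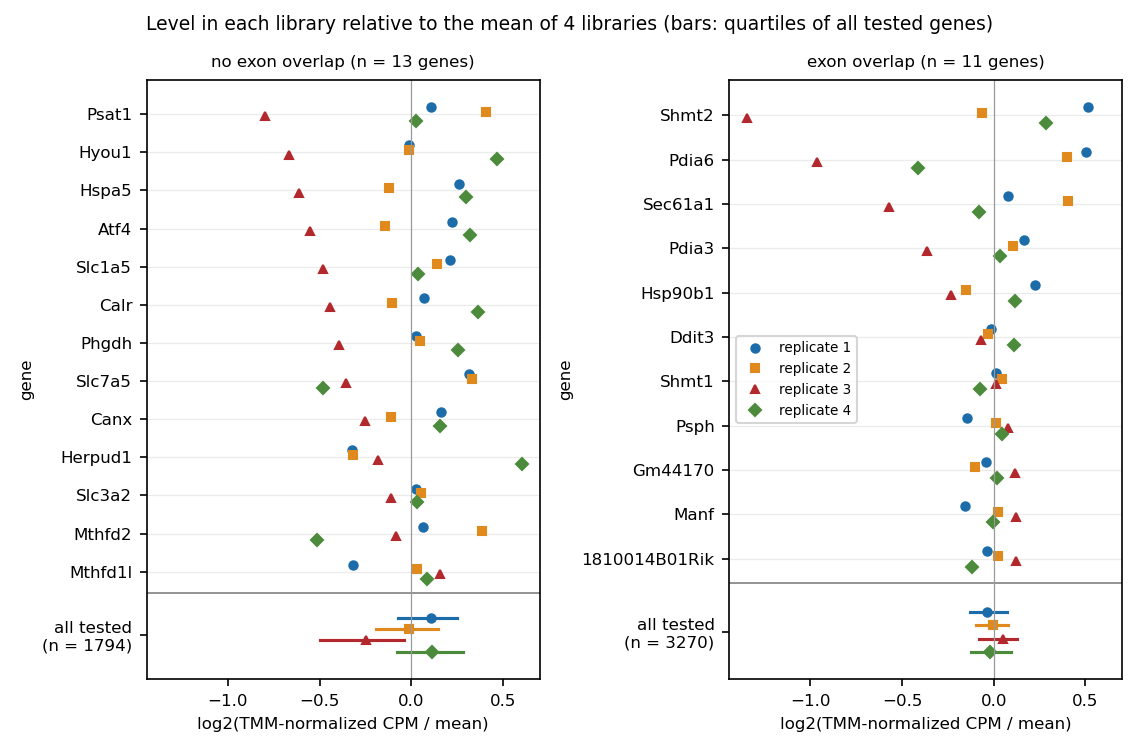
Log2 ratio of the TMM-normalized CPM in each library to the mean of the 4 libraries, for the tested genes without (left) and with (right) an exon overlap. The bottom rows give the median and quartiles of all tested genes. Replicate 3 (triangles) lies leftmost for 9 of 13 genes on the left and for 6 of 11 on the right.

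Related genes outside the list gave the setting for these levels. Over all protein-coding genes, 14.7% of those without an overlap and 46.8% of those with one reached 1 TPM in all libraries. The aminoacyl-tRNA synthetases, many of which are ATF4 targets, had the largest share reaching 1 TPM in all libraries of the 8 lists, 17 of 19. Among those without an overlap 12 of 13 did, with Tars at 20.4 ± 4.78 and Vars at 15.7 ± 2.56 TPM (SD, n = 4 each). Of genes for ER import and glycosylation 23 of 32 did so, 15 of 21 without an overlap, led there by Prkcsh at 12.3 ± 3.93 TPM. Of other ER folding enzymes 10 of 20 did (5 of 14 without an overlap), and of ER-associated degradation 8 of 18 (4 of 14), where Os9, a lectin for misfolded glycoproteins, had 42, 50, 53 and 35 counts. The 3 highest of the other folding enzymes, Erp29 (233 ± 20.9 TPM), Dnajc1 (79.1 ± 3.68) and Sdf2 (72.5 ± 7.82), all had an overlap of this kind.

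Of 12 sensors and effectors of eIF2 5 reached 1 TPM in all libraries, 2 of 7 without an overlap, and the highest, Eif2ak1 (the heme-regulated eIF2 kinase, 212 ± 7.93 TPM), overlapped Ankrd61 and Aimp2. Eif2s1, which encodes eIF2α itself, had 65, 63, 34 and 49 counts and no overlap. Of 21 other ATF4 targets and partners 10 did (6 of 17 without an overlap), with Nars at 22.1 ± 5.29 TPM, and Atf5 at 234 ± 19.6 TPM in a row that overlaps Nup62 and Il4i1. Of 16 other amino acid transporters 7 did (4 of 13), led by the glutamine transporter Slc38a1 at 9.00 ± 1.74 TPM, and of 23 other enzymes of serine, folate and proline metabolism 11 did (5 of 15), with Amt, of the glycine cleavage system, at 8.66 ± 1.44 TPM. No gene of these 8 lists was called for variation between libraries, against 0.454% (23) of all 5064 genes tested. With so low a share over all genes, the absence of calls does not set these lists apart.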

How the data were processed

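The authors' deposited tables give whole counts of read pairs per gene, made with featureCounts (1.4.6-p4) per the file headers. The headers record strand setting 1, only pairs mapped at both ends, exons pooled per gene, and the GENCODE vM13 annotation of mm10. For the aligner, no version is given in the sources used here. The labels give the assay as total RNA, and the name of the linked library protocol polyadenylated RNA. The tables were neither normalized nor filtered further by the authors as far as the headers say. TPM was computed from count and exon length. Names came from GENCODE vM21 (224 of 50600 genes unmatched), and promoters from RefSeq.

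The members and lists, and the rule for the genes named (all rows of the list, the genes opposite them, the 3 highest of each of 8 related lists, and any called gene of those lists), were chosen with earlier results of these data known. Descriptions of the CARE and ERSE genes by level were chosen after their values were seen. Genes on opposite strands overlap here when their exons have at least 1 base in common.

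Variation between libraries was tested with edgeR's goodness of fit (edgeR 4.0.16 under R 4.3.3, with limma 3.58.1). The negative binomial model had an intercept alone, a dispersion trend and TMM factors, low genes were removed by filterByExpr, and p-values were adjusted by Benjamini-Hochberg at 0.05. The procedure was tested on simulated data (5319 genes, 200 of them changed in 1 library). With 1 group there was no contrast for the quasi-likelihood test. Ratios within pairs used exact two-sided sign flips over 4 libraries. Intervals are 95% Wilson intervals, which treat each read pair as independent although no molecular identifiers are recorded. Other steps used DESeq2 1.42.0 and, in Python 3.11.15, SciPy 1.17.1, statsmodels 0.14.6, numpy 2.4.6, pandas 2.3.3 and Matplotlib 3.10.9. No pair of libraries agreed within counting noise, so none was taken as a library deposited more than once; this does not show that they are independent. Alternatives were other scalings, thresholds, dispersions, overlap lengths and prior counts and each replicate left out. Chosen after seeing the data were the fits of genes without an overlap alone, other scalings, and the removal of replicate 4, for the count lowest in replicate 3, and a rule of over 3 counts. Protein sequences were not analysed here, and values of a few related genes and markers are not reported here.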

Additional observations from a re-analysis of the deposited data

Results flagged for a closer look

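Among 48 groups of 4 libraries examined for a library far from the others, of which chance flags about 1 in 20, 2 were found. Asns had 0.994 TPM in replicate 3 (4 counts), against 3.87 to 4.12 TPM in the other libraries, so its lowest library lay apart. The gap was 0.919 of its whole range. Herpud1 had 6.468 TPM in replicate 4 (17 counts), against 3.62 to 3.79 TPM in the others, so its highest library lay apart, with a gap of 0.942 of its range. Both rest on few counts: the 4 counts of Asns in replicate 3 lie 1 above the floor of 3.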

How the results depend on the processing

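The number of rows reaching 1 TPM in all libraries was 27, and 23 to 31 under the other scalings, thresholds and left-out replicates. The 0 rows called for variation between libraries stayed 0 under all alternatives but a common dispersion, which called 1, Shmt2. Over all genes the 23 calls became 15 with no filter on low counts, 3 with genes without an overlap alone, and 7 to 20 with 1 replicate left out. The 4 pairs with a denser opposite gene became 2, of 3 pairs, when 200 bp of shared exon were required. The median of 4.60 TPM without an overlap was 3.027 as FPKM and 3.044 as TMM-scaled counts per kb, and that of 34.2 TPM with an overlap, opposite rows included, was 22.54 and 22.5. No ratio of a pair changed sign under prior counts of 0.1 or 1, or with any replicate left out. Genes at or under 3 counts in some library (Dnajb9, Sec61b, Chac1, Trib3, Sdf2l1 and Slc7a11) cannot be ordered among themselves at this depth. No paired analysis was possible because there was 1 group.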
